A study of Mus musculus with 16 samples.

Results

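Mouse chromosome 11 carries 78 of the 1080 odorant receptor genes measured in this series, out of 19505 named genes in all. The members were chosen as every gene whose symbol is Olfr followed by a number and whose array probe set is assigned to chromosome 11, and no expression value entered the choice. All 78 were found in the RefSeq gene table of the mouse assembly GRCm38.p6, and all 78 lie on chromosome 11 there. The series used S100a5-tauGFP mice, in which a green fluorescent protein reports transcription of S100a5, a gene that olfactory sensory neurons switch on with their own activity; the assay is called the Kentucky assay. Its 4 groups were GFP+ cells of octanoic acid-stimulated mice, GFP- cells of the same mice, GFP+ cells of clean air (vehicle) mice, and GFP- cells of the same mice, with 4 samples in each. All 24 mice, of both sexes and 7 to 12 weeks old, carried the reporter and stayed singly in chambers for 40 h under an air flow of 3.1 L per min. Stimulation with octanoic acid, a fatty acid odorant, or with filtered air began after 26 h and lasted 10 s every 20 min. Each pool of 3 mice gave 1 GFP+ and 1 GFP- sample by cell sorting of the dissociated olfactory mucosa, so the 2 samples of a pool share their mice. The strain, the reporter's zygosity and the gates of the sort are not given in the sources used here.

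An odorant receptor is a G protein-coupled receptor in the cilia of an olfactory sensory neuron. Each mature neuron transcribes a single allele of a single receptor gene, so the RNA of a receptor stands for the neurons that chose it. Ligand binding acts through the G protein subunit Gnal and the cyclase Adcy3 to open cyclic nucleotide-gated channels, and odor-evoked activity raises S100a5. Receptor genes lie in clusters on the chromosomes, and relatives in sequence are grouped into MOR families. In these sorted bulk samples, fewer neurons with a receptor and less receptor RNA per neuron cannot be told apart.

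The sort and the arrays were first checked on genes outside the receptors. S100a5 averaged 16.60 log2 in GFP+ cells and 15.07 log2 in GFP- cells with octanoic acid, and 16.45 and 15.13 log2 in the same order with clean air; it was higher in GFP+ cells by 1.53 ± 0.52 and by 1.32 ± 0.22 log2 (SD of 4 within-pool differences, limma adjusted p = 0.000139 and 0.000496). Omp, the marker of mature olfactory neurons, was at 18.84 log2 in GFP+ cells and 18.67 log2 in GFP- cells with octanoic acid, and at 18.83 and 18.69 log2 with clean air, so mature neurons were present in both fractions. All 5 markers of immature olfactory neurons, all 6 of leukocytes and all 5 of neutrophils were lower in GFP+ cells with either treatment. Their summed levels ran from 13.79 to 14.54, from 9.39 to 11.44 and from 8.10 to 10.98 log2 over the 8 GFP+ samples, and from 15.12 to 15.93, from 15.22 to 17.40 and from 17.35 to 19.51 log2 over the 8 GFP- samples. Of the measured markers of sustentacular, Bowman gland, microvillous and basal cells, 1 of 5, 2 of 4, 2 of 3 and 2 of 3 were lower in GFP+ cells with octanoic acid and 1, 2, 3 and 2 with clean air, and none was higher. The part of these marker differences in each receptor's difference was not tested. Precision here is set by having 4 pools per group, since arrays carry no read depth. The background, the median of 5222 negative-control probe sets, was 6.20 log2. The GFP+ array of octanoic acid replicate 3 had the lowest correlation with its group (r = 0.979, against up to 0.994), and the GFP- array of clean air replicate 4 the highest background (6.77 log2). In every other pool the background was higher on the GFP+ array. It ran from 6.21 to 6.71 log2 over the GFP+ arrays and from 5.80 to 6.77 log2 over the GFP- arrays. Dim receptors in both fractions were judged against the single value of 6.20 log2.

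Of the 78 chromosome 11 receptors, 71 had a mean signal above the background over the 16 arrays and 7 did not (Olfr1390, Olfr223, Olfr225, Olfr385, Olfr391, Olfr395 and Olfr401). That background is a median, and negative controls spread widely above it. Their 95th percentile was 10.4 log2, which the same mean exceeded for 22 of the 78 receptors. A mean above the median alone thus does not show that a receptor was detected. The mean spans both fractions, so a receptor bright in only 1 of them can miss the higher limit. Signals are log2 values of 1 probe set per gene and ran from 4.37 to 13.96 log2; levels of different probe sets are not set against each other, because probes differ in brightness. For each pool the GFP- signal was subtracted from the GFP+ signal, and limma tested the mean of the 4 differences per treatment against 0, with Benjamini-Hochberg adjustment over all 19505 genes at 0.05. With octanoic acid, 21 of the 78 receptors were called higher in GFP+ cells and 21 were called lower, against 6.26% of all genes called higher and 10.9% called lower. With clean air 22 were higher and 21 lower, against 5.83% and 9.58% of all genes. Thus 26.9% of the members were called in each direction with octanoic acid, and 28.2% higher and 26.9% lower with clean air. The 2 treatments shared most of these calls: 19 receptors were higher in both, 20 lower in both and 32 called in neither. Olfr1383 and Olfr332 were called higher with octanoic acid alone, Olfr51, Olfr402 and Olfr410 higher with clean air alone, Olfr378 lower with octanoic acid alone, and Olfr1391 lower with clean air alone. None had opposite calls, and whether these 7 differ between treatments is covered by the test of the odor effect given later.

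The deepest falls were larger than the largest rises. Averaged over the 8 pools, 6 receptors were more than 16-fold lower on the measured scale and 0 were more than 16-fold higher. The other 1002 receptors also had more deep falls than large rises. Among them 60 were over 16-fold lower and 12 over 16-fold higher with octanoic acid, and 59 and 12 with clean air. The imbalance is thus not particular to chromosome 11. The differences ran from -7.73 log2 (Olfr393) to 3.22 log2 (Olfr222) with octanoic acid and from -6.93 to 3.56 log2 for the same genes with clean air. The medians of the members were 0.03 and 0.08 log2, and the median of all genes was 0.11 log2 with either treatment. Neither the sign of the members' medians nor their order against all genes was stable. With octanoic acid the median of the members was -0.14 log2 without replicate 1, -0.24 log2 without replicate 2 and 0.07 log2 without replicate 3. With clean air it was 0.01, 0.02, 0.23 and 0.03 log2 without replicates 1 to 4 in turn. Under quantile normalization the members' medians of 0.23 log2 with octanoic acid and 0.21 log2 with clean air lay above those of all genes, 0.15 and 0.13 log2.

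In the RefSeq gene order the 78 receptors fall into 3 clusters and 1 single gene, with at least 154 other genes between one cluster and the next. The proximal cluster holds 24 members from Olfr1396 to Olfr1371, the middle cluster 24 from Olfr30 to Olfr225, and the distal cluster 29 from Olfr376 to Olfr412; Olfr464 lies alone beyond them. In the proximal cluster 9 receptors were higher and 2 lower with octanoic acid, and 9 and 3 with clean air. In the middle cluster the counts were 9 and 5 with octanoic acid, and 8 and 5 with clean air. In the distal cluster 3 were higher and 13 lower with octanoic acid, and 5 and 12 with clean air. The distal median was -0.55 log2 with octanoic acid and -0.68 log2 with clean air, while the proximal medians were 0.21 and 0.38 log2 and the middle medians 0.27 and 0.41 log2. Leaving out 1 pool moved several of these medians by over 1.5 times. The proximal median with octanoic acid was 0.06 log2 without replicate 1 or replicate 2 and 0.53 log2 without replicate 3, and the middle median with octanoic acid was 0.51 log2 without replicate 1. With clean air the middle median was 0.19 log2 without replicate 4 and the distal median -0.42 log2 without replicate 3. The signs held in all alternatives run, with distal medians from -0.71 to -0.25 log2 with octanoic acid and from -0.99 to -0.40 log2 with clean air. The distal median within a pool was below 0 in all 8 pools, from -1.33 to -0.35 log2. These counts describe the clusters and no test was made between them.

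**Figure D1:**
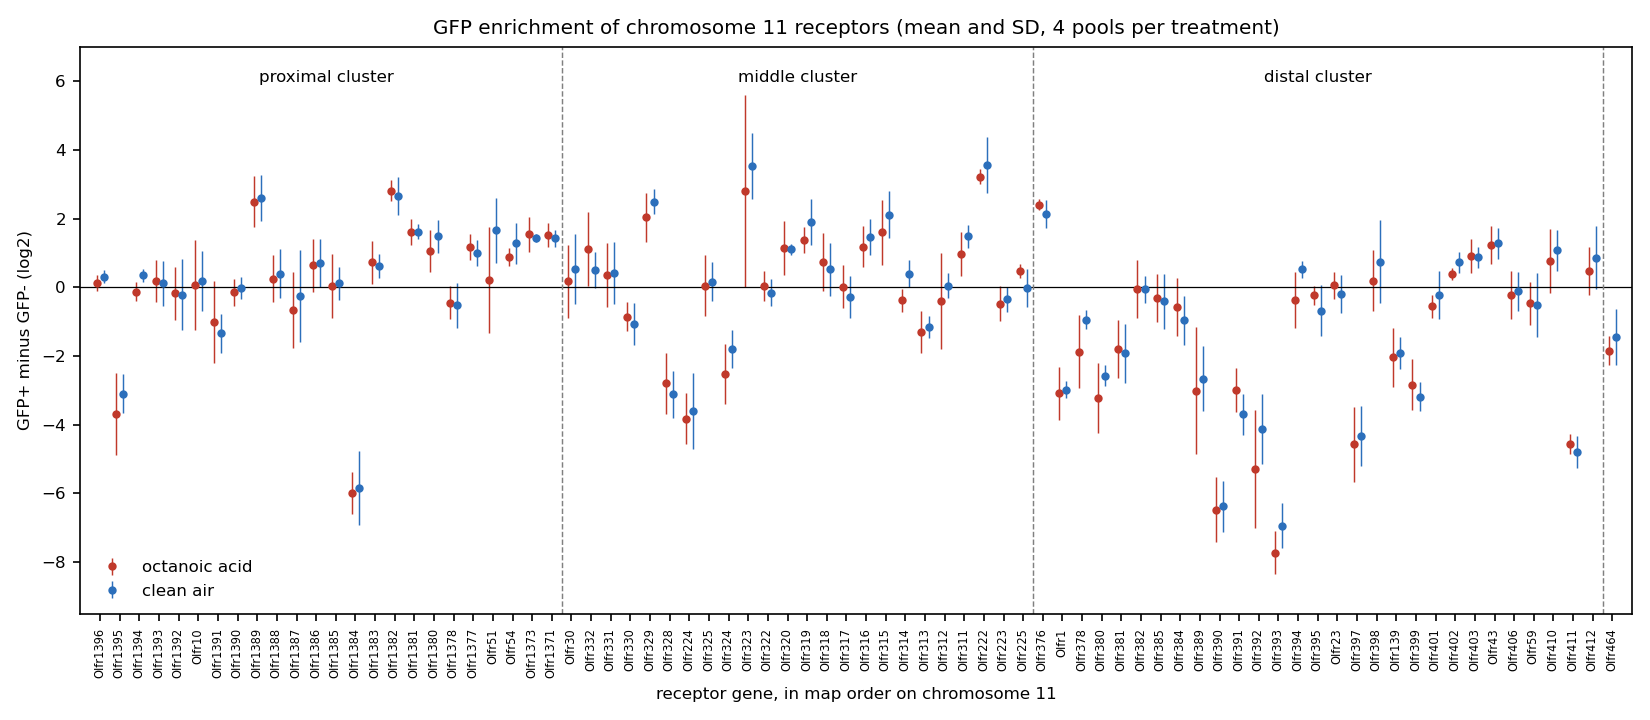
Difference between GFP+ and GFP- cells (log2, vertical axis) for each of the 78 receptors in RefSeq map order on chromosome 11 (horizontal axis), with octanoic acid (red) left of clean air (blue); points are means and bars SDs of 4 pools. Both the deepest fall (Olfr393, -7.73 log2) and the next (Olfr390) lie in the distal cluster, and no rise passes 3.56 log2.

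The proximal cluster is mostly 1 family. Of its 24 members 15 belong to MOR256, a family with 28 measured receptors on other chromosomes. The 15 proximal MOR256 receptors had 5 calls higher and 1 lower with octanoic acid, and 4 higher and 2 lower with clean air. Olfr1382 rose in GFP+ cells. Its signals were 12.19, 11.80, 11.55 and 12.19 log2 in GFP+ cells, against 9.60, 9.07, 8.89 and 8.92 log2 in GFP- cells of the octanoic acid pools. With clean air they were 11.65, 12.29, 11.46 and 11.91 log2 in GFP+ cells, against 8.89, 9.47, 9.58 and 8.74 log2 in GFP- cells. The samples were fully separated by fraction in both treatments, and the mean differences were 2.81 ± 0.31 and 2.65 ± 0.55 log2 (SD, n = 4 pools each), 7.02-fold and 6.30-fold higher (limma adjusted p = 1.74e-06 and 3.09e-06).

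Olfr1389 and Olfr1384 are MOR256 members of the same cluster that went opposite ways. Olfr1389 had 11.82, 11.90, 11.68 and 12.07 log2 in GFP+ cells, against 9.84, 10.08, 8.97 and 8.63 log2 in GFP- cells with octanoic acid. Olfr1384 had 6.71, 7.24, 6.59 and 6.65 log2 in GFP+ cells, against 13.29, 12.72, 13.05 and 12.11 log2 in GFP- cells. No fraction overlapped for either gene, so the same 4 pools that were high for one in GFP+ cells were near the background for the other. With clean air Olfr1389 averaged 11.84 ± 0.59 log2 in GFP+ cells and 9.23 ± 0.43 log2 in GFP- cells, and Olfr1384 6.99 ± 0.92 and 12.83 ± 0.16 log2 (SD, n = 4). The differences of Olfr1389 were 2.49 ± 0.74 log2 with octanoic acid and 2.60 ± 0.67 log2 with clean air (adjusted p = 6.7e-05 and 5.19e-05). Those of Olfr1384 were -5.99 ± 0.61 and -5.84 ± 1.07 log2, 63.7-fold and at least 53.9-fold lower in GFP+ cells (limma adjusted p = 2.6e-07 and 3.31e-07). The second fold is a lower bound because the GFP+ mean lay within 1 SD of the background. The GFP+ signals behind the first were also below the negative controls' 95th percentile of 10.4 log2, so its size is uncertain. The 250 bases before the annotated starts of this pair, on the plus strand of GRCm38.p6 from RefSeq, are shown to let the opposite members of 1 family be compared (Olfr1389 at chr11:49430177-49430426, Olfr1384 at chr11:49513368-49513617); the base after the last one shown is the annotated start of the transcript.
Olfr1389: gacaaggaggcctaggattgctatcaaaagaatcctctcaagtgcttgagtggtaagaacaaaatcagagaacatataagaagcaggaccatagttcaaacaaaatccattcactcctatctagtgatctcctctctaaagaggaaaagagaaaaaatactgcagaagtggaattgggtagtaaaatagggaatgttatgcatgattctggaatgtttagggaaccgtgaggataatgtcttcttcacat
Olfr1384: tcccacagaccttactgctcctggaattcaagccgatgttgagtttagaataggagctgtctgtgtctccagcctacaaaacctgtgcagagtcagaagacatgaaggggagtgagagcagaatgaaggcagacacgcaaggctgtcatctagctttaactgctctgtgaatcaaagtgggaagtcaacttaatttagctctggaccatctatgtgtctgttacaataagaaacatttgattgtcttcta
The windows of the pair, with the 50 bases after the start included, were 46.9% identical in a global alignment, near the median of 47.2% over all 2278 pairs of windows from 68 members.

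Several adjacent proximal receptors rose together. Olfr1381 and its neighbour Olfr1380 were higher by 1.61 ± 0.37 and 1.06 ± 0.61 log2 with octanoic acid and by 1.62 ± 0.21 and 1.49 ± 0.48 log2 with clean air (SD, n = 4 pools; adjusted p from 3.01e-05 to 0.00924). Their windows, 250 bases before and 50 after the annotated start, were the most alike of all pairs at 94.7% identity, 288 of 304 aligned columns. In both the annotated start is the coding start, so the window shows the sequence just before the coding part and not a mapped promoter. The capitals mark the first 50 coding bases (Olfr1381 at chr11:49551499-49551798 and Olfr1380 at chr11:49563673-49563972, plus strand).
Olfr1381: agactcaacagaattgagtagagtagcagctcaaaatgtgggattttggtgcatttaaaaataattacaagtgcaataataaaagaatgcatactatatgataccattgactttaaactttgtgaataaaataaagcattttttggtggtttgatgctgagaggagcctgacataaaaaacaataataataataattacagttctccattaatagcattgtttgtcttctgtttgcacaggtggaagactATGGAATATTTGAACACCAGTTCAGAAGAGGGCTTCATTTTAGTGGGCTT
Olfr1380: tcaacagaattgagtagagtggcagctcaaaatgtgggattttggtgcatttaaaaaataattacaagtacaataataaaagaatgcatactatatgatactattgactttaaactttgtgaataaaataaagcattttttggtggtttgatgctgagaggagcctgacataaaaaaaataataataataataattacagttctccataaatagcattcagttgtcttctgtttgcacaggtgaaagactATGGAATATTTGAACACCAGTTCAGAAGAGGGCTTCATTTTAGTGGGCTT
The coding letters shown are the same in both, and whether each probe set reads only its own gene is not given in the sources used here, and cross-hybridization between the pair was not tested. A similar pair, Olfr1382 and Olfr1373, had windows 93.4% identical and mean differences over the 8 pools of 2.73 and 1.49 log2. Of all 14 pairs of windows with at least 70% identity, all 14 lay within 1 cluster and 11 had differences of the same sign. These pairs are not independent, since several share a member such as Olfr381. Several are also pairs of the distal family MOR135, whose differences were mostly below 0. The share of same-sign pairs among all pairs was not counted, so no link between window and enrichment is drawn.

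The other proximal members covered the whole range. Olfr1395, the single MOR277 member, fell in GFP+ cells without reaching the background. It had 11.04, 11.37, 9.25 and 9.29 log2 in GFP+ cells, against 14.05, 13.82, 14.38 and 13.42 log2 in GFP- cells with octanoic acid, and 11.06, 11.37, 10.57 and 9.80 log2 against 14.00, 13.76, 14.28 and 13.12 log2 with clean air. The fractions did not overlap, and the differences of -3.68 ± 1.19 and -3.09 ± 0.56 log2 made it 12.9-fold and 8.53-fold lower (adjusted p = 1.89e-05 and 8.54e-05). Its neighbour Olfr1396, at 13.46 ± 0.27 log2 in GFP+ cells and 13.32 ± 0.31 log2 in GFP- cells with octanoic acid, was called with neither treatment (difference 0.14 ± 0.23 log2, adjusted p = 0.575, and 0.31 ± 0.19 log2 with clean air, adjusted p = 0.213). Olfr54 of family MOR126 was higher by 0.90 ± 0.26 log2 with octanoic acid and 1.28 ± 0.59 log2 with clean air (adjusted p = 0.0117 and 0.00112). The call of Olfr54 with octanoic acid was lost without replicate 1 (0.77 log2, adjusted p = 0.0628), and both its calls were lost when the pool was not used as a block (adjusted p = 0.266 and 0.112). Olfr1377 (MOR129) was also higher with both treatments, by at least 1.99-fold and at least 1.83-fold, Olfr1373 by 2.91-fold and 2.71-fold, and Olfr1371 by 2.88-fold and 2.69-fold. Olfr10 of MOR256 was not called, with differences of 0.07 ± 1.32 and 0.20 ± 0.87 log2 (adjusted p = 0.931 and 0.815).

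In the middle cluster the families differed. The 4 MOR285 receptors Olfr316, Olfr318, Olfr319 and Olfr320 had positive differences with both treatments, from 0.74 to 1.38 log2 with octanoic acid and from 0.53 to 1.90 log2 with clean air. Olfr316, Olfr319 and Olfr320 passed the threshold in both and Olfr318 in neither (adjusted p = 0.146 and 0.327). Olfr319 had 11.81, 10.46, 11.48 and 11.35 log2 in GFP+ cells, against 10.42, 8.79, 10.63 and 9.75 log2 in GFP- cells with octanoic acid; 1 GFP- sample lay above the lowest GFP+ sample, but within each pool GFP+ was higher. Its differences were 1.38 ± 0.37 and 1.90 ± 0.66 log2 (adjusted p = 0.00134 and 0.000121).

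The 6 MOR275 receptors, consecutive members on the map from Olfr331 to Olfr325, split instead. Olfr329 was higher, Olfr330, Olfr328 and Olfr224 lower, and Olfr331 and Olfr325 not called, with either treatment. Olfr329 had 14.28, 14.55, 12.13 and 13.24 log2 in GFP+ cells, against 12.07, 11.66, 10.96 and 11.34 log2 in GFP- cells with octanoic acid. Olfr328, the next gene, had 8.85, 9.88, 9.39 and 8.20 log2 in GFP+ cells, against 12.20, 12.84, 10.89 and 11.59 log2 in GFP- cells. Both were fully separated by fraction, in opposite directions. Olfr329 was higher by 2.04 ± 0.72 and 2.50 ± 0.36 log2, 4.13-fold and 5.65-fold (adjusted p = 8.44e-05 and 1.9e-05). Olfr328 was lower by 6.95-fold and 8.62-fold, with differences of -2.80 ± 0.88 and -3.11 ± 0.69 log2 (adjusted p = 5.44e-05 and 2.64e-05). Olfr224 had 6.06, 7.25, 6.30 and 6.03 log2 in GFP+ cells, against 10.95, 10.89, 9.78 and 9.29 log2 in GFP- cells with octanoic acid, and 6.45, 8.59, 6.03 and 5.70 log2 against 10.63, 10.53, 9.95 and 10.02 log2 with clean air. Most of its GFP+ samples sat at the background, so it was at least 13.4-fold and at least 10.7-fold lower (differences -3.82 ± 0.73 and -3.59 ± 1.11 log2, adjusted p = 1.49e-05 and 2.73e-05).

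Olfr222, a MOR256 receptor separated from Olfr311 by 34 other genes, had the largest rise of the 78. It had 15.05, 15.25, 15.20 and 15.24 log2 in GFP+ cells, against 11.73, 11.78, 12.07 and 12.27 log2 in GFP- cells with octanoic acid. With clean air it had 14.95, 14.75, 15.49 and 14.90 log2 in GFP+ cells, against 11.52, 11.96, 12.16 and 10.20 log2 in GFP- cells. Every GFP+ sample was above every GFP- sample, and the differences of 3.22 ± 0.22 and 3.56 ± 0.80 log2 are 9.34-fold and 11.8-fold (adjusted p = 2.74e-06 and 1.44e-06). The adjacent MOR256 members Olfr223 and Olfr225 lay under the background in all 4 groups, so no fold is given for them.

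Olfr323, the single MOR107 member, rested on fewer pools. Its signals were 11.19, 5.15, 12.30 and 12.41 log2 in GFP+ cells, against 7.76, 6.46, 7.54 and 8.06 log2 in GFP- cells with octanoic acid. They were 10.92, 8.93, 12.15 and 9.24 log2 in GFP+ cells, against 7.27, 6.56, 7.44 and 5.81 log2 in GFP- cells with clean air. The GFP+ sample of octanoic acid replicate 2 was under the background while the other 3 were high. The differences were 2.81 ± 2.80 log2 with octanoic acid and 3.54 ± 0.96 log2, at least 10.9-fold, with clean air (adjusted p = 0.0282 and 0.00797). Without replicate 1, 3 or 4 of the octanoic acid pools the first call was lost (adjusted p = 0.0946, 0.132 and 0.137), and without the pool as a block neither held (adjusted p = 0.121 and 0.0518). Its neighbour Olfr324 (MOR102) was lower by 2.53 ± 0.88 and 1.81 ± 0.55 log2.

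Olfr332 of MOR284 was high in all 4 groups. It had 14.57, 14.99, 14.30 and 14.30 log2 in GFP+ cells, against 12.22, 13.82, 14.58 and 13.12 log2 in GFP- cells with octanoic acid, and 14.47, 14.06, 14.00 and 14.25 log2 against 13.84, 13.81, 14.03 and 13.05 log2 with clean air. The fractions overlapped in both treatments. Its difference of 1.11 ± 1.08 log2 with octanoic acid passed the threshold (adjusted p = 0.0429) and that of 0.51 ± 0.53 log2 with clean air did not (adjusted p = 0.37); without octanoic acid replicate 1 the first was 0.69 log2 (adjusted p = 0.185). The call was also lost without octanoic acid replicate 2 or 4 and without clean air replicate 1 or 2, with adjusted p from 0.058 to 0.129. The 2 MOR278 receptors differed: Olfr315 was higher by 1.60 ± 0.94 and 2.12 ± 0.69 log2 (adjusted p = 0.00492 and 0.000707), and Olfr314 had differences of -0.38 ± 0.33 and 0.40 ± 0.39 log2 (adjusted p = 0.192 and 0.184). Of the 3 MOR222 receptors, Olfr311 was higher and Olfr313 lower with both treatments, and Olfr312 was called with neither. Olfr30, which has no family number in RefSeq, had differences of 0.17 ± 1.05 and 0.54 ± 1.02 log2 (adjusted p = 0.806 and 0.432), and Olfr317 0.01 ± 0.63 and -0.28 ± 0.62 log2 (adjusted p = 0.979 and 0.539).

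The distal cluster holds the whole of MOR135, 17 receptors, none of which has a measured relative of that family on another chromosome. With octanoic acid 10 of them were lower and 1 higher in GFP+ cells, and with clean air 9 were lower and 1 higher, with medians of -1.87 and -1.91 log2. Over all alternative settings 8 to 12 MOR135 receptors were lower and 1 or 2 higher. The other 12 distal receptors had 2 calls higher and 3 lower with octanoic acid, and 4 and 3 with clean air.

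**Figure D2:**
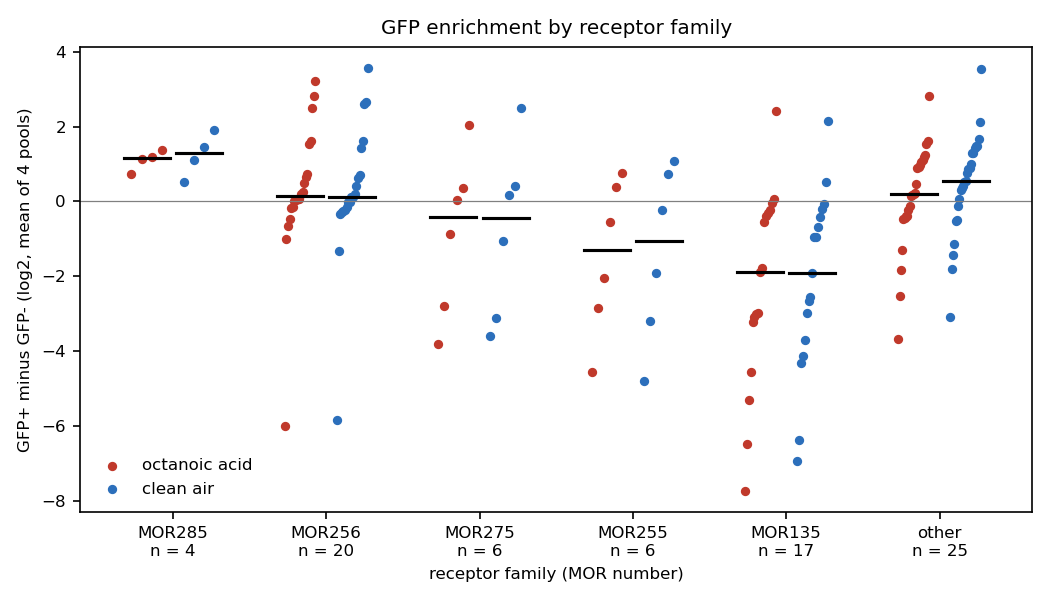
Difference between GFP+ and GFP- cells (log2, vertical axis) of each receptor, grouped by MOR family (horizontal axis, with the number of members), with octanoic acid (red) left of clean air (blue); each point is a mean of 4 pools and each line the family's median. The median lies at -1.87 and -1.91 log2 for MOR135 and at 1.16 and 1.29 log2 for MOR285, and single members of MOR256 and MOR135 lie far from their family's median.

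Olfr393 had the largest difference of all 78. Its signals were 5.98, 6.38, 6.11 and 6.80 log2 in GFP+ cells, against 13.98, 13.72, 14.58 and 13.89 log2 in GFP- cells with octanoic acid. With clean air they were 7.70, 6.48, 6.54 and 6.98 log2 in GFP+ cells, against 14.05, 13.33, 14.40 and 13.66 log2 in GFP- cells. With octanoic acid the GFP+ samples sat near the background, and with clean air they lay above it, from 6.48 to 7.70 log2. The GFP- samples lay far above the background in every pool. The differences of -7.73 ± 0.63 and -6.93 ± 0.65 log2 correspond to a fall of at least 201-fold under octanoic acid. With clean air the fall was 122-fold on the measured scale (limma adjusted p = 1.29e-08 and 2.18e-08 in the same order). The clean air GFP+ signals were also below the negative controls' 95th percentile of 10.4 log2, so the size of that fold is uncertain. Olfr392, next to it, averaged 6.88 ± 1.48 log2 in GFP+ cells and 12.17 ± 0.49 log2 in GFP- cells with octanoic acid. With clean air it averaged 7.46 ± 0.88 and 11.58 ± 0.84 log2. It fell at least 31.5-fold under octanoic acid and 17.4-fold on the measured scale under clean air (limma adjusted p = 2.16e-05 and 0.000179). The same limit applies to its clean air fold. Olfr391 was under the background in GFP+ cells, at 4.75 ± 0.33 log2 against 7.74 ± 0.48 log2 in GFP- cells with octanoic acid and 4.21 ± 0.27 log2 against 7.91 ± 0.63 log2 with clean air, so its fall is bounded only at 2.90-fold and 3.27-fold or more.

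Olfr390 and Olfr23 are MOR135 members with related windows and unlike values. Olfr390 had 5.09, 5.69, 6.11 and 5.98 log2 in GFP+ cells, against 12.68, 11.60, 12.99 and 11.48 log2 in GFP- cells with octanoic acid. Olfr23 had 8.61, 9.50, 8.87 and 8.87 log2 in GFP+ cells, against 8.82, 8.97, 9.16 and 8.67 log2 in GFP- cells. The fractions were more than 5 log2 apart for the first gene in each pool and overlapped for the second. Olfr390 fell at least 63.4-fold under octanoic acid and at least 62.0-fold under clean air (differences -6.47 ± 0.94 and -6.38 ± 0.73 log2, adjusted p = 1.18e-07 and 1.46e-07). Olfr23 had differences of 0.06 ± 0.38 and -0.19 ± 0.55 log2 (adjusted p = 0.882 and 0.62). Their windows from RefSeq (GRCm38.p6, plus strand, Olfr390 at chr11:73786690-73786989 and Olfr23 at chr11:73939998-73940297) were 71.6% identical; both annotated starts used are coding starts, and capitals mark the 50 coding bases.
Olfr390: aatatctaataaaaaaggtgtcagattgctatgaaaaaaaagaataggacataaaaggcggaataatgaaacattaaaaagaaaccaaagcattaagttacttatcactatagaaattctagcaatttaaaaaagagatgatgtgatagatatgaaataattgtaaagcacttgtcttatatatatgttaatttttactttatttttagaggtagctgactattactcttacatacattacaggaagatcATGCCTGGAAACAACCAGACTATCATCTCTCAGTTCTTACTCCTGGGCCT
Olfr23: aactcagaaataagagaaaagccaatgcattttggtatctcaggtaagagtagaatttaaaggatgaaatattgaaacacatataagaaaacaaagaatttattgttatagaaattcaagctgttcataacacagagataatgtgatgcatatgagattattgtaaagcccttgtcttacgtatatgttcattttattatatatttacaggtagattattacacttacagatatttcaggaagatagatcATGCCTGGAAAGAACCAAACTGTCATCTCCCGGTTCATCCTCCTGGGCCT

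Olfr1 and Olfr397 of MOR135 also fell. Olfr1 averaged 7.13 ± 0.52 log2 in GFP+ cells and 10.22 ± 0.50 log2 in GFP- cells with octanoic acid, and 6.72 ± 0.33 and 9.69 ± 0.57 log2 with clean air, 8.50-fold and 7.88-fold lower (limma adjusted p = 3.26e-06 and 4.84e-06). The means of Olfr1 were below the negative controls' 95th percentile of 10.4 log2 in both fractions, so the size of its folds is uncertain. Olfr397 had 5.97, 5.75, 5.21 and 5.56 log2 in GFP+ cells, against 10.26, 9.27, 11.30 and 9.95 log2 in GFP- cells with octanoic acid, at least 15.9-fold lower; with clean air the bound was 12.0-fold (adjusted p = 4.85e-06 and 8.57e-06). Olfr380, Olfr381 and Olfr389 were lower with both treatments as well. Olfr376, at the proximal end of the distal cluster, was the 1 MOR135 receptor that rose. It had 7.82, 7.70, 7.99 and 7.60 log2 in GFP+ cells, against 5.39, 5.09, 5.71 and 5.29 log2 in GFP- cells with octanoic acid, and 7.38, 7.74, 7.71 and 7.80 log2 against 5.62, 5.91, 5.37 and 5.20 log2 with clean air. All 8 GFP- samples were under the background and all 8 GFP+ samples above it, so the rise is given as at least 2.99-fold and at least 2.75-fold (differences 2.41 ± 0.15 and 2.14 ± 0.41 log2, limma adjusted p = 1.29e-06 and 3.65e-06). The GFP+ signals of Olfr376 were still below the negative controls' 95th percentile of 10.4 log2. Lying above the background median alone does not show that it was detected.

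Olfr394, 1 gene after Olfr393, was high in every sample. It had 13.46, 14.62, 12.86 and 14.13 log2 in GFP+ cells, against 14.32, 13.94, 14.01 and 14.31 log2 in GFP- cells with octanoic acid. With clean air it had 14.20, 13.72, 14.61 and 13.18 log2 in GFP+ cells, against 13.69, 12.87, 14.14 and 12.91 log2 in GFP- cells. The fractions overlapped in both treatments and neither difference passed the threshold (-0.38 ± 0.81 and 0.53 ± 0.24 log2, adjusted p = 0.347 and 0.205); without octanoic acid replicate 2 the first was -0.73 log2 and passed (adjusted p = 0.0381). The second passed in the other direction with each array centred on its median (0.80 log2, adjusted p = 0.0307) and with a fit of the clean air pools alone (0.53 log2, adjusted p = 0.0488). Olfr384 had differences of -0.56 ± 0.84 and -0.96 ± 0.71 log2 (adjusted p = 0.253 and 0.061), and the second passed without octanoic acid replicate 1 or 4 or clean air replicate 4.

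**Figure D3:**
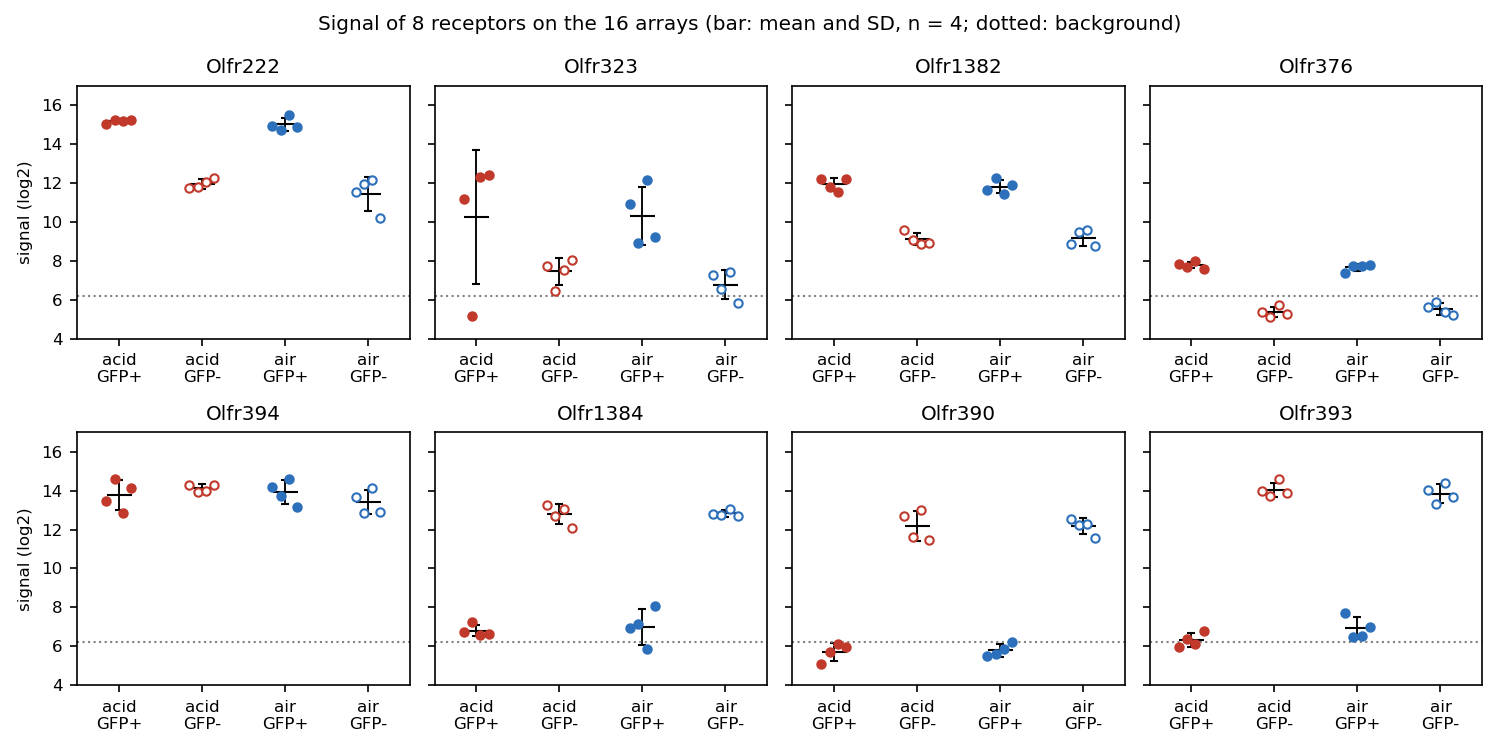
Array signal (log2, vertical axis) of 8 receptors in GFP+ cells (filled) and GFP- cells (open) with octanoic acid (acid, red) and clean air (air, blue); points are pools, bars mean and SD (n = 4), and the dotted line is the background at 6.20 log2. Olfr1384, Olfr390 and Olfr393 are near the background in GFP+ cells and between 11.48 and 14.58 log2 in GFP- cells, Olfr222 is high in both fractions, and 1 GFP+ sample of Olfr323 lies apart.

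Beyond MOR135 the distal cluster was mixed. Of the 6 MOR255 receptors, Olfr139, Olfr399 and Olfr411 were lower with both treatments. Olfr411 had 8.14, 7.92, 8.52 and 7.46 log2 in GFP+ cells, against 12.98, 12.69, 12.79 and 11.80 log2 in GFP- cells with octanoic acid, and 8.19, 7.69, 7.79 and 7.44 log2 against 13.58, 12.59, 12.16 and 11.96 log2 with clean air. The fractions lay far apart in every pool, 23.5-fold and 27.7-fold on the measured scale (differences -4.56 ± 0.30 and -4.79 ± 0.46 log2, limma adjusted p = 3.74e-08 and 2.74e-08). The GFP+ signals of Olfr411 were below the negative controls' 95th percentile of 10.4 log2, so the size of these folds is uncertain. Its neighbours on either side were not lower: Olfr410 (MOR255) was higher with clean air (1.08 ± 0.59 log2, limma adjusted p = 0.0373) and not called with octanoic acid (0.76 ± 0.93 log2, adjusted p = 0.125), and Olfr412 (MOR127) was called with neither. With clean air, 0 MOR255 receptors were called higher without the pool as a block, or without octanoic acid replicate 3 and clean air replicate 4 together. With octanoic acid, 2 of the 6 were called higher under array median centring, quantile normalization or a floor at the background. The MOR125 pair Olfr403 and Olfr43 rose. Olfr43 had 13.47, 13.39, 13.40 and 12.38 log2 in GFP+ cells, against 11.76, 11.96, 12.07 and 11.93 log2 in GFP- cells with octanoic acid, 2.34-fold higher, and 2.44-fold with clean air (adjusted p = 0.0022 and 0.00168). The RefSeq table lists Olfr43 and Olfr403 as synonyms of each other, and whether the 2 probe sets read different genes was not tested. Olfr59 of MOR133 had differences of -0.47 ± 0.62 and -0.51 ± 0.93 log2 (adjusted p = 0.347 and 0.339). The lone Olfr464 (MOR240) was lower, by 1.84 ± 0.43 and 1.44 ± 0.81 log2 (adjusted p = 0.000433 and 0.00282).

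Neighbours on the map were not uniform. Over the 74 neighbouring pairs within clusters, the median size of the difference in enrichment was 1.39 log2, against 1.71 log2 for any pair among 3003. The 3003 pairs include pairs from different clusters and families, so the 2 medians describe unlike sets. Of the 74 pairs, 44 had no other gene between them, and in the rest up to 45 lay between. In 8 neighbouring pairs both genes were higher with both treatments and in 7 both were lower. In 4 pairs, Olfr330 with Olfr329, Olfr329 with Olfr328, Olfr324 with Olfr323 and Olfr376 with Olfr1, one was higher and the other lower. The matching shares among all 3003 pairs were not counted. The numbers in the symbols fall along the map in 45 of the 74 pairs, so number order and map order only partly agree.

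The windows of 68 members were searched for 2 letter patterns on both strands. The core CCCNNGGG of Ebf-factor sites was in 2 of 68 members (2.94%), against 13.7% of all 32851 windows in the table, and the homeodomain core TAATTA was in 13 (19.1%), against 5.29%. TAATTA was in 5 of the 15 members with a window that were higher with both treatments and in 3 of the 18 that were lower with both. Olfr1381 and Olfr1380, whose windows were 94.7% identical, are both among those 5, so the 5 are not independent. For 45 of the 68 members the annotated start is the coding start, so the windows of members and of other genes are not alike in kind. A match of letters is a description and not a bound site.

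The comparison of octanoic acid with clean air asked whether the odorant changed any of these receptors. No member passed adjusted p 0.05 in limma, for the odor effect on enrichment, within GFP+ cells or within GFP- cells, and neither did any of the 19505 genes. At an unadjusted p under 0.05 there were 2 of 78 members for the odor effect, 3 in GFP+ cells and 2 in GFP- cells, against 4.47%, 3.67% and 3.8% of all genes. The odor effects on enrichment ran from -1.45 log2 (Olfr51) to 0.71 log2 (Olfr391), and 61 of the 78 were within 0.5 log2 of 0. The median standard error was 0.378 log2, and even the largest effect, that of Olfr51, was not called. Changes well above 1 standard error could thus have been missed.

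The 3 members with the smallest p values in each of the 3 comparisons did not pass the threshold. Olfr314 had an odor effect of -0.78 log2 (SE 0.260, limma adjusted p = 0.94), from 8.07 ± 0.74 log2 in GFP+ and 8.45 ± 0.75 log2 in GFP- cells with octanoic acid, and 8.76 ± 0.44 and 8.35 ± 0.32 log2 with clean air. Olfr394 had -0.91 log2 (SE 0.359) and Olfr1394 -0.48 log2 (SE 0.219), with the same adjusted p. In GFP+ cells Olfr391 differed by 0.54 log2, Olfr317 by 0.57 log2 and Olfr384 by 0.81 log2 between octanoic acid and clean air (limma adjusted p = 0.955 each). In GFP- cells Olfr394, Olfr51 and Olfr43 differed by 0.74, 0.78 and 0.43 log2 (limma adjusted p = 0.985 each). Olfr51 of MOR129 was called higher with clean air alone, but its samples were uneven. It had 7.66, 9.47, 7.15 and 5.33 log2 in GFP+ cells, against 7.75, 7.41, 6.57 and 7.01 log2 in GFP- cells with octanoic acid, and 8.19, 8.63, 7.95 and 7.48 log2 against 7.34, 5.59, 6.50 and 6.17 log2 with clean air. Its odor effect of -1.45 log2 had a standard error of 0.689 log2 (limma adjusted p = 0.94), and its clean air call (1.66 ± 0.95 log2, at least 2.84-fold, adjusted p = 0.0392) was lost without clean air replicate 2 (1.21 log2, adjusted p = 0.191), without clean air replicate 3 or 4 (adjusted p = 0.089 and 0.0979), without octanoic acid replicate 1 or 3 (adjusted p = 0.0528 and 0.05003), and without the pool as a block (adjusted p = 0.0782).

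**Figure D4:**
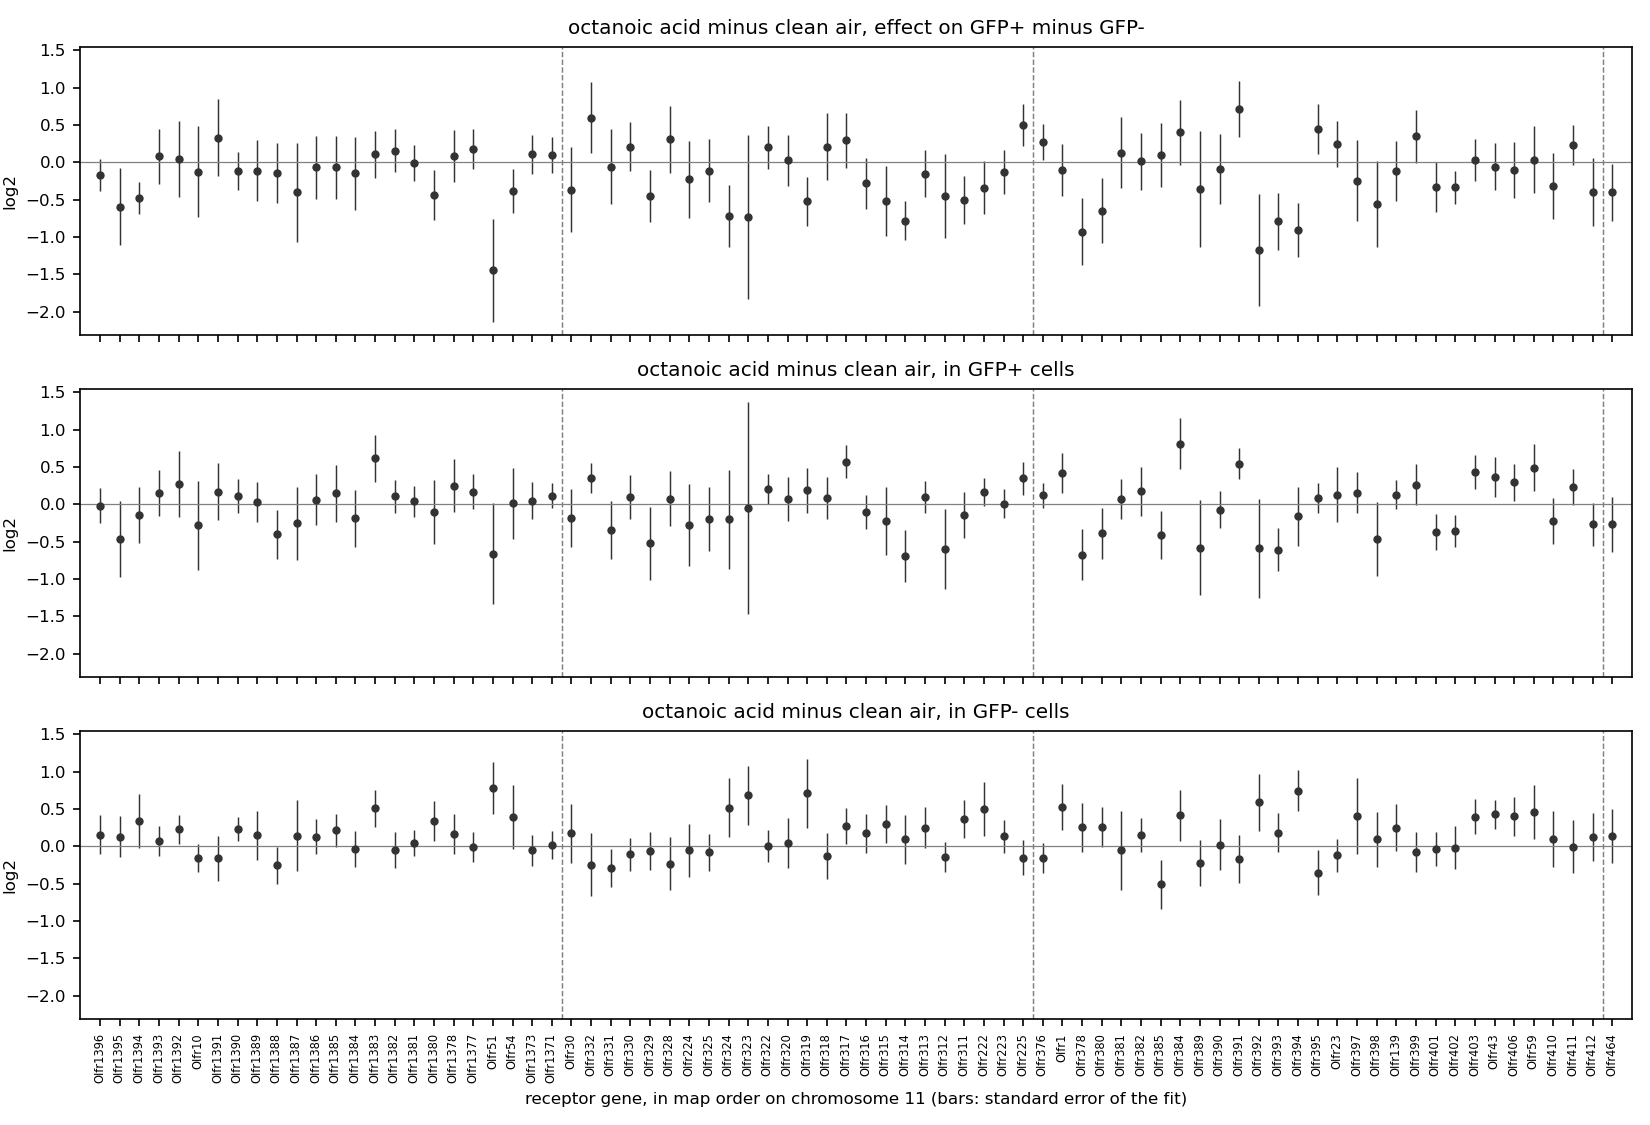
Octanoic acid minus clean air (log2, vertical axes) for the 78 receptors in map order (horizontal axis): effect on the GFP+ minus GFP- difference (top), in GFP+ cells (middle) and in GFP- cells (bottom); points are limma estimates and bars standard errors, with 4 pools per treatment. None passed the threshold, and the top row runs from -1.45 to 0.71 log2.

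The enrichments under the 2 treatments, which come from separate pools on the same probe sets, had Pearson r = 0.983 and Spearman rho = 0.964 across the 78 genes and the same sign in 70. This is a description across genes, which are not independent replicates.

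The genes that act downstream of a receptor had small differences. Of 19 listed genes of receptor signalling and trafficking 18 were measured; 3 were higher and 0 lower with octanoic acid, and 4 higher and 1 lower with clean air, with medians of 0.23 and 0.24 log2. Pde1c, the ciliary phosphodiesterase that breaks down cyclic AMP, was higher by 0.82 ± 0.11 and 0.78 ± 0.15 log2. Ano2, the calcium-activated chloride channel of the cilia, was higher by 0.51 ± 0.07 and 0.50 ± 0.13 log2, and Pde4a, a second phosphodiesterase, by 0.53 ± 0.27 and 0.73 ± 0.23 log2. Slc24a4, the sodium-calcium exchanger that ends the response, was higher with clean air (0.87 ± 0.13 log2) and had 0.43 ± 0.43 log2 with octanoic acid. Grk3, a receptor kinase, was lower with clean air, but its probe set lay under the background in all 4 groups. Gnal, Adcy3, Cnga2 and the receptor chaperones Rtp1 and Rtp2 were not called. Of the 11 listed genes of receptor choice, among them Lhx2, Ldb1, Ebf1 and Emx2, none was called with either treatment, and their largest difference was 0.49 ± 0.46 log2 (Emx2 with clean air). Of 7 activity-dependent genes 5 were higher with both treatments: S100a5, Lrrc3b, Pcp4l1, Kirrel2 (an adhesion molecule of olfactory axons) and Kcnn2 (a potassium channel).

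Set beside the other 1002 odorant receptors, the chromosome 11 receptors had a smaller share of calls higher and a similar share lower. Of the other receptors 36.8% were higher and 24.9% lower with octanoic acid, and 38.5% and 23.1% with clean air, with medians of 0.32 and 0.46 log2. The median of the chromosome 11 receptors was below that of the other receptors in each of the 8 pools. It ran from -0.52 to 0.42 log2 with octanoic acid and from -0.26 to 0.41 log2 with clean air, while that of the other receptors ran from 0.04 to 0.61 log2 and from 0.25 to 0.65 log2. Chromosomes 9 and 10, the only others counted singly, lay on either side. Of 129 chromosome 9 receptors 58 were higher and 27 lower with octanoic acid, and 63 and 24 with clean air. Of 65 on chromosome 10, 13 were higher and 24 lower with octanoic acid, and 11 and 24 with clean air. The 28 MOR256 receptors on other chromosomes had 12 calls higher and 4 lower with octanoic acid and 11 and 4 with clean air, against 6 and 1 and 5 and 2 for the 20 on chromosome 11. These are counts of members chosen by position, and no test of the difference was made.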

How the data were processed

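RNA of 16 sorted samples (8 pools of 3 mice, GFP+ and GFP- each; 50 to 100 ng) was hybridized to Clariom S arrays. The authors deposited a log2 signal for each probe set on each array; the submitters' processing notes name Affymetrix Expression Console. How probes were summarised and corrected for background, and the release used, are not given in the sources used here, and the scale was inferred to be log2 from the range of 2.13 to 19.54. No raw intensities were used. Of 28846 probe sets 6640 are controls and 2634 have no symbol; the brightest of several probe sets of a gene was kept (67 left out), which gave 19505 genes. Names, MOR families (from synonyms) and gene order come from the RefSeq table of GRCm38.p6; the build of the array annotation is not given, so no coordinates of genes are printed, only those of the RefSeq windows themselves. The order was used to split clusters where over 50 other genes lie between members, a limit set after the order was seen.

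Within-pool differences, GFP+ minus GFP-, were fitted with limma 3.58.1 in R 4.3.3 (lmFit, eBayes, two-sided) over all 8 pools; means per treatment and the odor effect were tested, and octanoic acid was compared with clean air within each fraction, 4 against 4, all with Benjamini-Hochberg adjustment over all genes at 0.05. The script was tested on simulated data. Folds are 2 to the power of the difference. Some dimmer groups had a mean under the background or within 1 SD above it. There, values below the background were set to it, which makes the fold a lower bound. Other folds are on the measured scale. Some of them rest on a dimmer group below the negative controls' 95th percentile of 10.4 log2, so their size may depend on the floor. Among these are the folds of Olfr1382, Olfr1371, Olfr1373, Olfr328, Olfr411 and Olfr1.

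The pool block rests on the titles, which put both fractions of a pool on the same mice. Odor and vehicle pools also share numbers: deviations of same-numbered pools correlated at 0.179, 0.110, 0.237 and 0.100 for the differences, at 0.371, 0.100, 0.219 and 0.138 for the GFP+ arrays and at 0.408, 0.100, -0.0986 and 0.153 for the GFP- arrays. Each was over 0.1 before rounding except the third of the GFP- arrays. Members named with full values are the 8 largest rises and 8 largest falls called in both treatments, the 4 with the highest signal, the extremes of each run of symbol numbers, the 3 smallest p values per odor comparison, and numbers below 60; the 6 genes with printed sequences were chosen after their values were seen. The rule for the members used no expression value, but the rule and the lists were set with earlier results of these data known. Alternatives were scaling, floor, dim-probe filter, probe set choice, left-out pools and blocks.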

Additional observations from a re-analysis of the deposited data

Results flagged for a closer look

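Within the 66 sets of 4 pool differences of the named receptors, 5 held 1 pool far from the other 3; about 1 in 20 such sets does so by chance. Olfr54 had a difference of 1.29 log2 in octanoic acid replicate 1, while the other 3 pools lay between 0.73 and 0.80 log2. Olfr30 had 2.06 log2 in clean air replicate 4, with the others between -0.16 and 0.18 log2. Olfr224 had -1.94 log2 in clean air replicate 2, with the others between -4.32 and -3.93 log2. Olfr397 had -3.01 log2 in the same pool, with the others between -4.86 and -4.63 log2. Olfr317 had -1.20 log2 in clean air replicate 1, with the others between -0.02 and 0.12 log2.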

How the results depend on the processing

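Across all alternatives 17 to 29 receptors were higher and 20 to 24 lower with octanoic acid, and the same ranges held with clean air; no called difference of a named receptor reversed. Centring each array on its median gave 27 and 20 with octanoic acid and 29 and 21 with clean air. It moved the median of all genes to 0.42 and 0.38 log2. Of all 19505 genes it called 7791 higher and 1715 lower with octanoic acid, and 6082 and 1571 with clean air. The main setting called 1221 and 2126 of all genes, and 1138 and 1868. Centring on the other receptors gave 20 and 20, and 19 and 24. A floor at the background gave 29 and 22, and 22 and 23. The floor called 8174 and 1993 of all genes, and 1064 and 1406. With octanoic acid, median centring and the floor thus called a smaller share of members than of all genes higher. Leaving out 1 pool gave 17 to 20 higher and 20 to 24 lower with octanoic acid, and 19 to 22 and 20 to 23 with clean air. Without octanoic acid replicate 3 and clean air replicate 4 the counts were 20 and 20, and 18 and 21. Without the replicate block of the pool they were 17 and 21, and 17 and 20. A replicate block on the shared pool numbers, pairing octanoic acid with clean air, left 0 calls. The smallest limma adjusted p was 0.781 for the odor effect, 0.826 in GFP+ and 0.915 in GFP- cells. In that fit 7, 5 and 7 members had an unadjusted p under 0.05. The matching share of all genes is not given for it, so these counts are not read as a result about the members. For the named receptors, 14 values with octanoic acid and 10 with clean air lost the threshold under an alternative, all of Olfr323, Olfr332, Olfr51 or Olfr54, and 2 and 13 gained it, those of Olfr384, Olfr394, Olfr1394, Olfr1396 and Olfr314; the cause was not tested. Signal limits what can be said of most receptors. By the mean over all 16 arrays, 7 lay at or under the negative-control median. Only 22 of 78 exceeded the controls' 95th percentile of 10.4 log2 by that mean. It spans both fractions, so a receptor bright in GFP- cells alone, such as Olfr1384, can miss the higher limit.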
